A study of Sus scrofa with 4 samples.

Results

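The Toll-like receptors and the proteins that pass their signal on were followed in porcine preadipocytes and adipocytes. The group held 10 genes chosen by name, namely the receptors TLR1, TLR2, TLR3, TLR4, TLR6, TLR9 and TLR10, the adaptor MYD88 and the accessory proteins CD14 and LY96. Every non-control probe whose gene name on the array equalled a member was used, which gave 19 of the 43603 probes. PIP cells are a preadipocyte line from the intramuscular fat of the pig, used between passages 26 and 35 and grown in DMEM with 10% serum. The pMA (porcine mature adipocytes) were PIP cells kept 4 days past confluence and then 4 days in differentiation medium with 10% fetal bovine serum, 50 ng/ml insulin, 0.25 μM dexamethasone, 2 mM octanoate and 200 μM oleate. Dexamethasone, a glucocorticoid, and both fatty acids were thus common to all pMA arrays and absent from the PIP array. Stimulated pMA received 100 μM serotonin (written per ml in the sample labels) or 2.5 µg/ml TNF-α for 12 h. RNA of each group was pooled and each condition was read on 1 array, 4 arrays in all, so no difference below has a replicate check and no test was possible. Only 1 cell line was used.

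Toll-like receptors are membrane proteins that bind conserved parts of microbes and products of damaged tissue. TLR2 pairs with TLR1 or TLR6 and binds lipoproteins, TLR4 binds lipopolysaccharide, and TLR3 and TLR9 lie in endosomes, where they bind double-stranded RNA and unmethylated CpG DNA. CD14 is a surface protein that carries lipopolysaccharide to TLR4, and LY96 (MD-2) is the partner of TLR4 that holds the lipid. TLR1, TLR2, TLR4, TLR6 and TLR9 signal through MYD88, which leads to NF-κB, whereas TLR3 and, in part, TLR4 use the adaptor TRIF. In fat tissue TLR2 and TLR4 are known for linking bacterial products and fatty acids to inflammation.

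Levels are given as a percentage of the 75th percentile of intensity on the same array, and differences as log2 ratios of such levels. Levels of different probes are not compared, because probes differ in brightness for reasons other than the amount of RNA. A probe was taken as detected where the scanner software marked it well above background. Where only 1 of the arrays compared detected a probe, the ratio is a bound, taken against the faintest detected signal on the dim array or against the probe's own value if that was higher. A gene with several probes was represented by its brightest probe. A gene is said to have changed where its ratio reached 2-fold. The methods name this cutoff together with a t-test, which was not possible here, so changed does not mean the same as the paper's call. The error beside a ratio is that of the scanner software's model for a single spot, with no share from culture, pooling or labelling.

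The probes behind the results are DNA oligonucleotides of 60 bases, and their sequences, as listed in the deposited array files and written 5′ to 3′, show which values are independent readings of a gene and which are not. Among the probes that carry a member as gene name, those of TLR2 and TLR6 were the ones with a ratio or bound past 2-fold against unstimulated pMA. No member probe shared a run of 16 bases with a probe of another gene name.
TLR2 A_72_P088356: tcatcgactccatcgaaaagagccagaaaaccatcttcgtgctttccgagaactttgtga
TLR6 A_72_P088166: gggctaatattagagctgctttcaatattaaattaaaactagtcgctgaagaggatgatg

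The TLR4 probes below disagreed in detection although they read 1 gene. They have no run of 12 bases or more in common and so read separate stretches of the transcript.
TLR4 A_72_P419074: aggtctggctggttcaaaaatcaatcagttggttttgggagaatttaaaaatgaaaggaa
TLR4 A_72_P444577: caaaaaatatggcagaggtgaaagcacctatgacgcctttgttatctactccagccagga
TLR4 A_72_P547391: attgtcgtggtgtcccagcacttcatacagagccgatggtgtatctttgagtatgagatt

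LY96 had 4 probes, and capitals mark the run of 44 bases that 3 of them share. These 3 are near copies of 1 reading, and only A_72_P661778 is a separate one.
LY96 A_72_P609999: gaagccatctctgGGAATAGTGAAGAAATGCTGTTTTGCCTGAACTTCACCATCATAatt
LY96 A_72_P584851: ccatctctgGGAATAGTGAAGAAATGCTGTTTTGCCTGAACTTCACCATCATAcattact
LY96 A_72_P088056: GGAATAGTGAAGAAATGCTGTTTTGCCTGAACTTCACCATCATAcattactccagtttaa
LY96 A_72_P661778: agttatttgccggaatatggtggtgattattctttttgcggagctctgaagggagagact

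The CD14 pair and the second MYD88 probe are shown because these separate readings moved alike after stimulation. They share no run with another probe of their gene.
CD14 A_72_P050971: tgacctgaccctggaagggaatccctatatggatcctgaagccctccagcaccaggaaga
CD14 A_72_P756625: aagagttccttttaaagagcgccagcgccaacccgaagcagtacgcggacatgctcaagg
MYD88 A_72_P088111: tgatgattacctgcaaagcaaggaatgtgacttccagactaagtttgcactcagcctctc

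Of the probes on each array, 56.5% were detected in PIP cells, 56.5% in pMA, 60.9% after serotonin and 66.0% after TNF-α. The 75th percentile of intensity lay between 479 and 566, no spot was saturated, and the faintest detected signal lay at 4.02% of that percentile in pMA and between 2.63% and 2.87% on the other arrays. Repeated spots of a probe gave a log2 ratio a technical SD between 0.17 and 0.20. For genes with 2 probes, the ratios of both differed by a median of 0.30 between pMA and PIP cells, 0.14 after serotonin and 0.13 after TNF-α. Markers of adipocytes, a list of 12, fitted the label of pMA only in part. CD36 (log2 ratio 5.17, with 4 probes from 1.19 to 5.17), PLIN2 (3.14) and PPARG (1.07) were higher in pMA than in PIP cells. FABP4 was at least 8.48-fold higher, but ADIPOQ, CEBPA and PLIN1 were not detected in unstimulated pMA.

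Of the 10 genes, 8 were detected on at least 1 array. TLR1, TLR3, TLR6, MYD88, CD14 and LY96 were detected by every one of their probes on all 4 arrays. The probe named TLR2 was detected on every array except that of unstimulated pMA. TLR4 was detected by 0 of its 4 probes in PIP cells, by 1 in pMA, by 3 after serotonin and by 1 after TNF-α. TLR9, at 0.70%, 2.17%, 2.44% and 2.47% in PIP cells, pMA, serotonin and TNF-α, was below the detection mark throughout. TLR10 was likewise not detected on any array, with levels from 0.74% to 1.49%. A dim probe does not show that a transcript is absent, only that this probe gave no signal above the background of the slide.

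**Figure D1:**
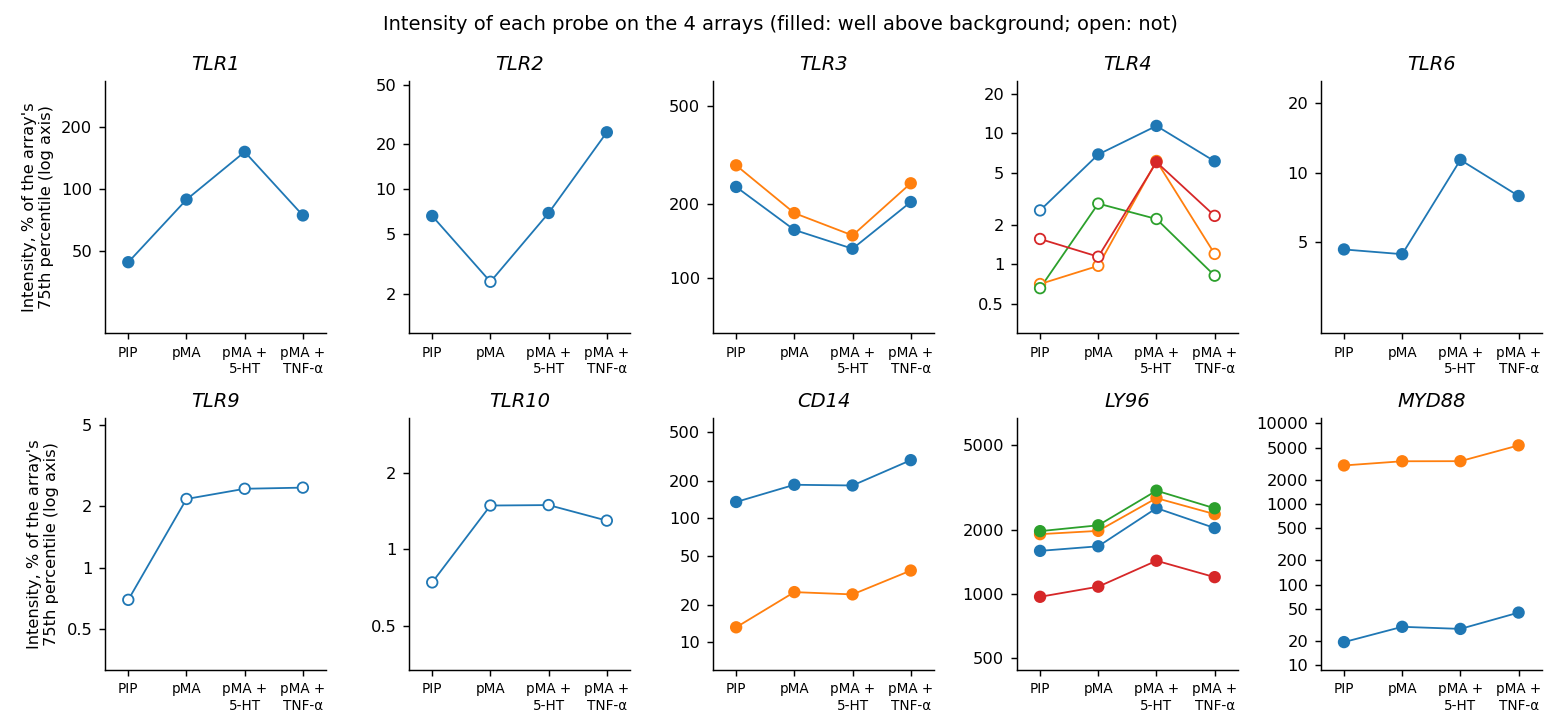
Level of each probe, as a percentage of the 75th percentile of intensity of its array, in PIP cells, unstimulated pMA, pMA with serotonin (5-HT) and pMA with TNF-α, 1 array each. Each line is 1 probe, filled points were well above background and open points were not, and each panel has its own log axis, so heights are not comparable between panels. TLR2 was highest after TNF-α and open in pMA, and TLR1, TLR4, TLR6 and LY96 were highest after serotonin. The exception was the TLR4 probe A_72_P444577, which was dim throughout.

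Differentiation was read from pMA against PIP cells, where 2 of the 8 genes with a ratio changed, TLR1 and TLR4, both higher. The background share was 13.5% of 18633 gene names, with 9.94% higher and 3.56% lower. Over the 8 genes the median was 0.13 on the log2 scale, close to that of all gene names, 0.12. TLR1 stood at 44.3% in PIP cells, 88.9% in pMA, 151% after serotonin and 74.6% after TNF-α. Its lowest level was thus in PIP cells, and its log2 ratio between pMA and PIP cells was 1.01 (scanner error 0.21), just at the cutoff. This value ranged from 0.66 to 1.43 over the processing settings and lay under the cutoff when arrays were scaled to their median, quantile normalized or corrected for background by normexp, a method that adds an offset and so draws dim signals toward each other.

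For TLR4 the brightest probe read 2.57% in PIP cells, where it was dim, 6.88% in pMA, 11.4% after serotonin and 6.10% after TNF-α. That placed pMA at least 2.41-fold above PIP cells. The other TLR4 probes named for the gene were dim on both of these arrays, so among these the change rests on 1 probe. Of the probes that name TLR4 only in their description, A_72_P444572 was at least 2.13-fold higher in pMA. A_72_P180746 was dim on both arrays. The bound of the brightest probe ranged from 0.42 on the log2 scale with normexp to 1.69 with scaling to the spike-in controls. Dim probes passed the cutoff more often than others, with 18.6% of probes of a mean log2 level under -3 at least 2-fold higher in pMA.

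TLR2 moved the other way. Its level was 6.62% in PIP cells and 2.40%, below the detection mark, in unstimulated pMA, so that pMA was at least 1.65-fold lower. TLR3 was also lower in pMA, with log2 ratios of -0.64 and -0.58 by its 2 probes, which did not reach the cutoff. TLR6 stood at 4.63% in PIP cells and 4.42% in pMA, a ratio of -0.07 (scanner error 0.38), which was within the error of the spot.

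The accessory proteins and the adaptor were above 0 or near it. LY96 gave ratios between 0.05 and 0.16 by its 4 probes. CD14 gave 0.46 by its brighter probe and 0.94 by the other, and MYD88 gave 0.17 and 0.63. In both genes the dimmer probe gave the larger ratio, by 0.48 in CD14 and 0.46 in MYD88, which is above the median disagreement of 0.30 between paired probes in this comparison and below the 90th percentile of 0.93. The sign of small ratios in this comparison depended on the scaling. The median of all gene names moved from 0.12 to -0.22 when arrays were scaled to their median and to 0.56 when they were scaled to the spike-in controls, and MYD88 and LY96 were below 0 in the first case while TLR6 was above 0 in the second.

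**Figure D2:**
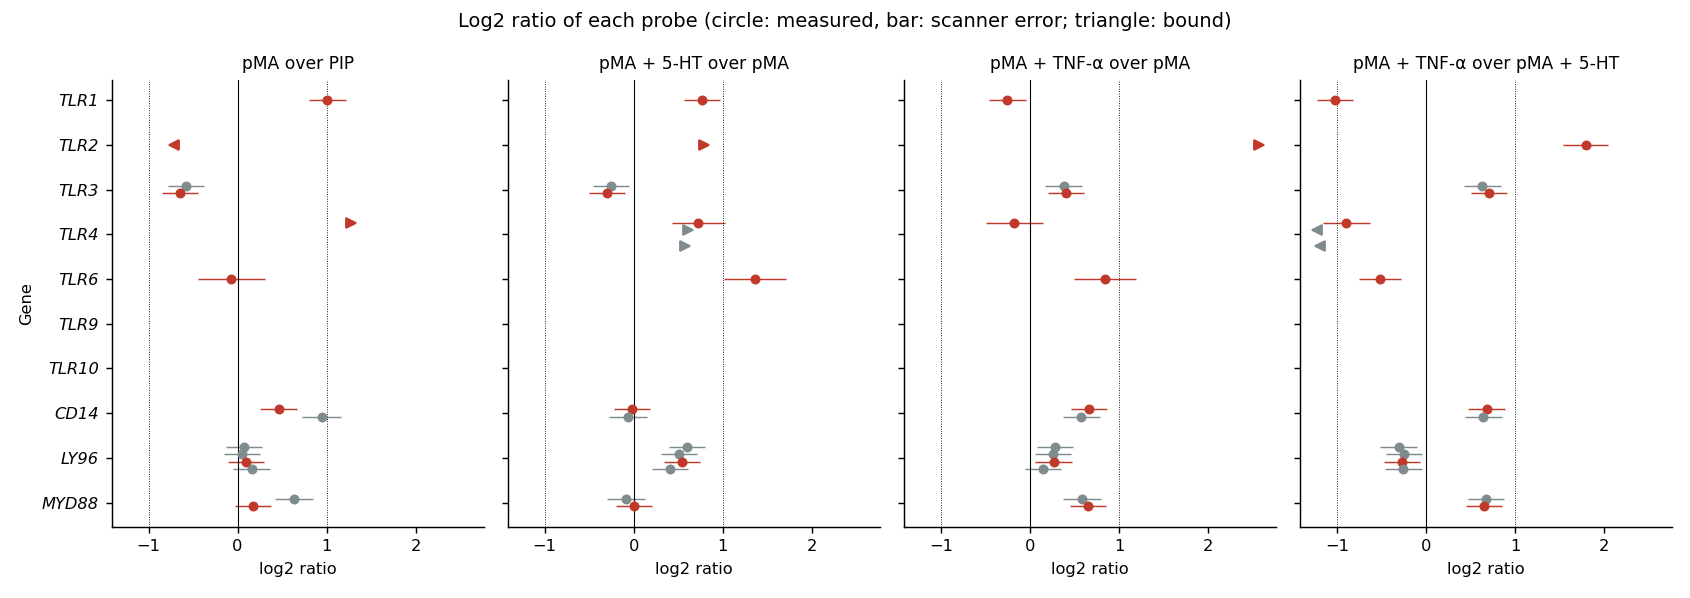
Log2 ratio of each probe in the 4 comparisons, with genes in rows and the log2 ratio on the horizontal axis. Red marks the probe that represents the gene, gray its other probes, circles are ratios measured on both arrays with the scanner error as bar, triangles are bounds that point in the direction of the change, and dotted lines mark 2-fold. TLR2 had the highest bound after TNF-α (2.58), TLR6 the highest ratio after serotonin (1.36), and TLR9 and TLR10 have no ratio.

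Serotonin was compared with unstimulated pMA, the same array that serves the TNF-α comparison, so an error of that array enters both. After serotonin 1 of the 8 genes changed, TLR6, which was higher. The background was 6.82% of 19095 gene names, 2.08% higher and 4.73% lower. The ratio was positive in 6 of the 8 genes and negative in 2, with a median of 0.63 against 0.01 for all gene names. MYD88, counted among the 6, stood at 0.00. Over the processing settings this median lay between 0.16, with normexp, and 0.76, with scaling to the spike-in controls. All gene names had -0.07 and 0.13 in these settings. TLR6 read 4.63% in PIP cells, 4.42% in pMA, 11.4% after serotonin and 7.91% after TNF-α. Both stimulated arrays were thus above both unstimulated ones, and the ratio after serotonin was 1.36 (2.57-fold, scanner error 0.34). With the normexp correction it was 0.35. Of probes with a mean log2 level under -3, 2.69% were at least 2-fold higher after serotonin.

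TLR1, the neighbor of TLR6 on the chromosome, had a ratio of 0.77 after serotonin (scanner error 0.20), short of the cutoff. In the RefSeq gene table for Sscrofa11.1, TLR10, TLR1 and TLR6 follow each other without another protein-coding gene between them. The members of this cluster differed on these arrays, since TLR1 was detected on all, with its lowest level in PIP cells, TLR6 was detected on all with nearly equal levels in PIP cells and pMA, and TLR10 was never detected.

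TLR4 was detected by more probes after serotonin than on any other array. Its brightest probe had a ratio of 0.72 to pMA (1.65-fold, scanner error 0.30). A_72_P419074 read 0.71%, 0.97%, 6.14% and 1.20% in PIP cells, pMA, serotonin and TNF-α, and A_72_P547391 read 1.56%, 1.14%, 6.01% and 2.34%. Both were dim on every array except that of serotonin, where the bound of the log2 ratio to pMA was 0.61 for the first and 0.58 for the second. A_72_P444577 was dim everywhere, with levels from 0.66% to 2.90%. No ratio or bound of the 4 probes named for TLR4 reached the cutoff, so the gene is not counted as changed after serotonin. A bound is a minimum, so it does not show that the change was under 2-fold. The own values of A_72_P419074 and A_72_P547391, dim in pMA, differed by 2.66 and 2.40 on the log2 scale.

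**Figure D3:**
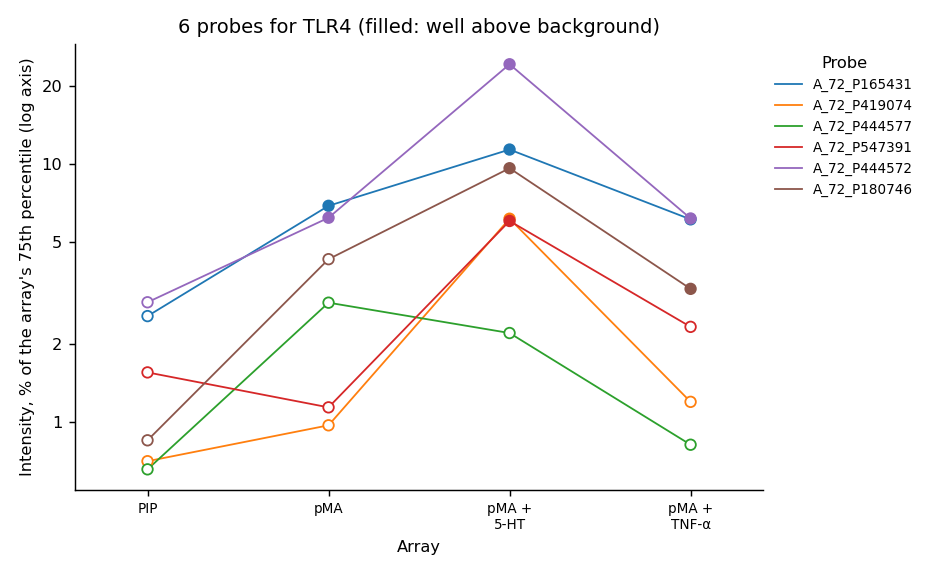
Level of 6 TLR4 probes, as a percentage of the 75th percentile of intensity, on the 4 arrays (log axis). The first 4 carry TLR4 as gene name and the last 2, A_72_P444572 and A_72_P180746, name it only in their description; filled points were well above background. The serotonin array holds the highest value of each probe except A_72_P444577, which was dim throughout.

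LY96, the partner of TLR4, was highest after serotonin by each of its probes. The brightest read 1972% in PIP cells, 2101% in pMA, 3055% after serotonin and 2525% after TNF-α, a ratio of 0.54 to pMA. The probes with the shared run gave 0.51 to 0.60 and the separate probe 0.40, each with a scanner error of 0.20 and none at the cutoff. CD14, which delivers lipopolysaccharide to this pair, had ratios of -0.02 and -0.06 after serotonin, and MYD88 had 0.00 and -0.09. These were smaller than the scanner error of 0.20 to 0.21.

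TLR2 read 6.93% after serotonin against the dim 2.40% in pMA, so it was at least 1.72-fold higher. Its level after serotonin was close to that of 6.62% in PIP cells. TLR3 was lower after serotonin by both probes, at -0.30 and -0.25, and had its lowest level on that array, 149% by the brighter probe against 287% in PIP cells, 183% in pMA and 242% after TNF-α. Its probes share 48 of their bases and count as 1 reading.

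After TNF-α 1 of the 8 genes changed against unstimulated pMA, TLR2, which was higher. The background was 3.56% of 19782 gene names, with 2.21% higher and 1.34% lower. The ratio was again positive in 6 of the 8 genes and negative in 2, with a median of 0.53 against 0.01 for all gene names. Over the processing settings this median lay between 0.30, with normexp, and 0.64, with scaling to the spike-in controls. All gene names had -0.07 and 0.10 in these settings. TLR2 read 6.62% in PIP cells, 2.40% in pMA, 6.93% after serotonin and 24.0% after TNF-α. The TNF-α array was the highest for this probe and at least 5.96-fold above pMA, a bound because pMA was dim. Of probes as dim as a mean log2 level under -3, 2.85% were at least 2-fold higher. Over the processing settings the log2 ratio of TLR2 lay between 1.08, with normexp, and 3.32, above the cutoff in each setting that gave one.

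These TLR2 values rest on 1 probe, and a second one read differently. A_72_P163051 carries another identifier as gene name and is described only as a partial match to mouse TLR2, so it lies outside the rule that chose the members. It was detected on all 4 arrays, at 120% in PIP cells, 97.9% in pMA, 176% after serotonin and 104% after TNF-α. Its highest level was after serotonin, with a log2 ratio of 0.85 to pMA, against 0.08 after TNF-α and -0.76 between TNF-α and serotonin (scanner error 0.20 to 0.21). Whether this probe reads the TLR2 transcript was not tested.

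MYD88 and CD14 were highest after TNF-α and lowest in PIP cells by both of their probes. The brighter MYD88 probe read 2998%, 3379%, 3387% and 5317% in PIP cells, pMA, serotonin and TNF-α, and the dimmer one 19.4%, 30.0%, 28.3% and 45.0%. The ratios to pMA were 0.65 and 0.59. The brighter CD14 probe read 135%, 186%, 184% and 294% in the same order and the dimmer one 13.2%, 25.3%, 24.3% and 37.8%, with ratios of 0.66 and 0.58. Each gene therefore stood about equally high in pMA with and without serotonin and higher with TNF-α, short of the 2-fold cutoff.

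Among the other receptors TLR6 had a ratio of 0.84 (1.79-fold, scanner error 0.35) after TNF-α, which was 0.07 with normexp, and TLR3 of 0.40 and 0.38. TLR1, at -0.25, and the brightest TLR4 probe, at -0.17 (scanner error 0.32), were the members below 0. LY96 lay between 0.15 and 0.28 by its 4 probes.

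The arrays of both stimulations were also compared directly, which leaves out the pMA array. Between TNF-α and serotonin TLR2 was higher after TNF-α and TLR1 lower, 2 of the 8 genes. The background was 6.9% of 21862 gene names, 5.07% higher and 1.83% lower. TLR2 was detected on both, and its log2 ratio was 1.79 (3.46-fold, scanner error 0.25), and 0.91 with normexp. TLR1 had -1.02 (scanner error 0.20), which ranged from -1.14 to -0.88 over the processing settings and so lay on both sides of the cutoff. TLR4 was lower after TNF-α, by -0.90 with its brightest probe and by at least 2.33-fold and at least 2.29-fold with the pair that only the serotonin array detected. A_72_P444572 and A_72_P180746, which name TLR4 only in their description and entered no count, had -1.98 and -1.55. TLR6 had -0.52 and LY96 -0.25 to -0.31. MYD88 (0.65 and 0.67), CD14 (0.68 and 0.64) and TLR3 (0.70 and 0.63) were higher after TNF-α without reaching the cutoff. By the probes named for the genes, TLR1, TLR4, TLR6 and LY96 were higher after serotonin and TLR2, TLR3, CD14 and MYD88 higher after TNF-α. The partial-match probe for TLR2 went the other way, as given above.

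Other genes of the pathway were followed by lists written from general knowledge. Of 25 adaptors and kinases that act next to the receptors, 18 were on the array. Between pMA and PIP cells 17 had a ratio, of which 1 was higher and 1 lower, beside 13.5% of all gene names in either direction. TAB3, a subunit that links TRAF6 to the kinase MAP3K7, was higher (1.05), and CHUK, a kinase of the IκB complex, was lower (-1.07). After serotonin 17 of the 18 had a ratio and after TNF-α all 18, and 0 changed in either case. That is near the background of 6.82% and 3.56% for a list of this size. The medians were 0.22 and 0.10 against 0.01 and 0.01 for all gene names. IRAK4, the kinase that MYD88 recruits, had 0.51 after serotonin and 0.09 after TNF-α, and TRAF6, the ubiquitin ligase after it, had 0.01 and -0.04. TRAF3 had the highest ratio of the list in each case, 0.72 and 0.46. IRF7, a transcription factor of the interferon response, had -0.71 after serotonin and 0.14 after TNF-α.

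Among 9 cofactors and other receptors on the array, HSP90B1, the chaperone (gp96) that folds most Toll-like receptors, was lower in pMA than in PIP cells (-1.61, with 8 probes from -2.16 to -1.15). CD36, a fatty acid receptor that can act with TLR2, was higher in pMA (5.17, with 4 probes from 1.19 to 5.17). It was higher again after serotonin (1.47, with probes from 1.12 to 1.47). Between pMA and PIP cells 4 of the 9 had a ratio. Of these 1 was higher and 1 lower, beside 13.5% of all gene names in either direction. After serotonin 4 had a ratio and 1 was higher, beside 2.08% of all gene names. After TNF-α 5 had a ratio and none passed 2-fold, beside 3.56%. TLR5 and TLR8 were not detected on any array, and TLR7 was detected after serotonin (3.86%) and TNF-α (4.06%) only, near the faintest detected signals.

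Of 5 inhibitors of the pathway on the array, 2 changed after serotonin and 3 after TNF-α, all higher, beside 2.08% and 2.21% of all gene names. TNFAIP3 (A20), which removes ubiquitin chains from the signaling complex, stood at 7.12%, 7.65%, 36.6% and 300.3% in PIP cells, pMA, serotonin and TNF-α, with ratios of 2.26 and 5.29 to pMA. NFKBIA (IκBα), which holds NF-κB in the cytoplasm, had 1.97 and 3.04. TNIP1, a partner of TNFAIP3, had 0.17 and 1.56. IRAK3, which blocks the IRAK complex, had -0.30 and 0.20.

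Of 16 output genes on the array, 6 were higher and 3 lower at least 2-fold after serotonin, and 10 were higher and 0 lower after TNF-α. Of all gene names 2.08% were higher and 4.73% lower after serotonin, and 2.21% higher and 1.34% lower after TNF-α. The medians were 0.19 and 1.75. IL1A (3.79), PTGS2 (3.29) and CXCL2 (3.06) led after serotonin, and C3 (6.09), CFB (5.19) and SOD2 (3.67) after TNF-α. CXCL10 and CCL5, chemokines that respond to interferon and to TLR3, were lower after serotonin (-1.14 and -1.04) and stood at 1.95 and 0.73 after TNF-α. IL6 had -0.44 and 1.63. TNF-α acts through its own receptors on the same NF-κB outputs, so these values do not separate signaling by Toll-like receptors from signaling by TNF receptors.

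**Figure D4:**
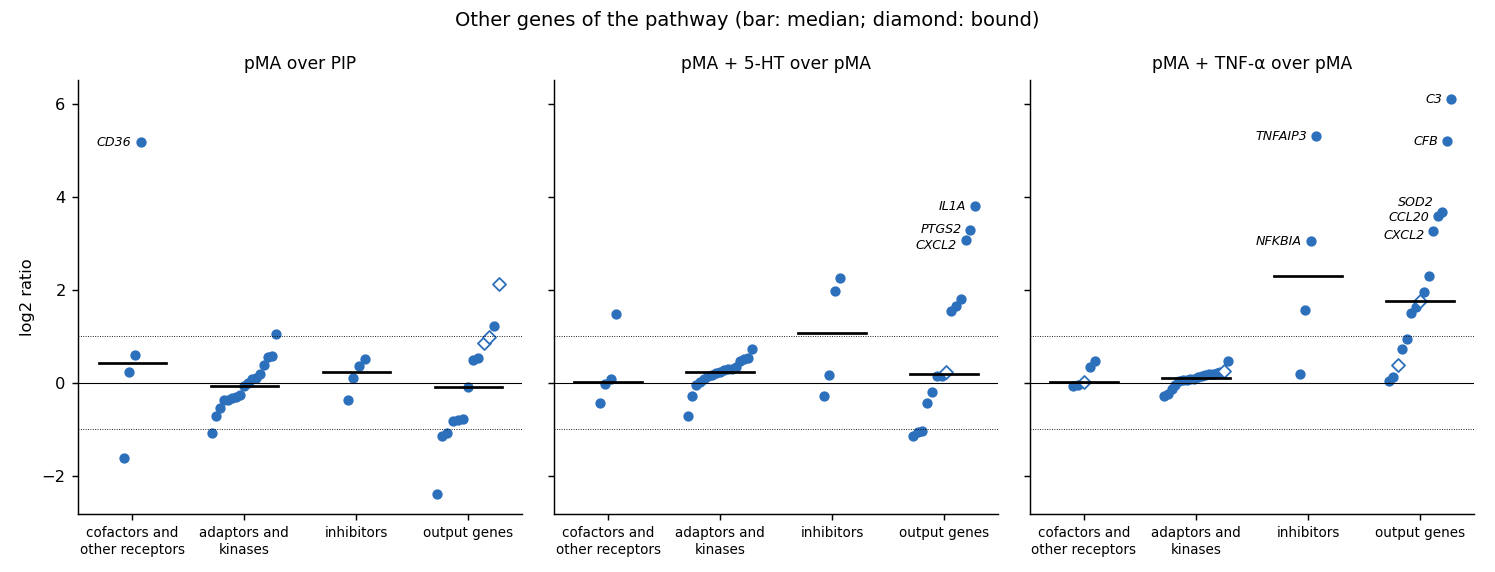
Log2 ratios of other genes of the pathway in 3 comparisons, by list. Each point is a gene through its brightest probe, open diamonds are bounds, the black bar is the median of the list, dotted lines mark 2-fold, and genes with a ratio of about 3 or more are named. TNFAIP3 reached 5.29 and C3 6.09 after TNF-α, and the medians of the adaptors and kinases were 0.22 after serotonin and 0.10 after TNF-α.

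Some of the members, TLR2, CD14, TLR4 and LY96, are also abundant in macrophages. Of 12 macrophage and leukocyte markers 7 were on the array by name. CD163 was not detected on any array, LYZ was detected after serotonin only (4.31%), and SPI1 after serotonin and TNF-α only (3.64% and 2.66%). TYROBP, an adaptor of myeloid receptors, read 7.91%, 17.7%, 35.7% and 52.5% in PIP cells, pMA, serotonin and TNF-α, with ratios of 1.01 and 1.57 to pMA. AIF1 had -0.96 and -0.91, and FCER1G 0.26 and 0.10. CD86 had -1.05 after serotonin. Thus 1 of the 7 was at least 2-fold higher and 1 lower after serotonin, beside 2.08% and 4.73% of all gene names. After TNF-α 1 was higher and 0 lower, beside 2.21% and 1.34%. The summed level of the 7 was 5603% in PIP cells, 7706% in pMA, 3771% after serotonin and 6900% after TNF-α, nearly all of it CD86. Some markers of other cells passed 2-fold after serotonin. Of 6 preadipocyte and fibroblast markers on the array, COL1A1 (-1.41) and DCN (-1.16) were lower after serotonin, of 5 endothelial markers PECAM1 (-1.46) was lower, and of 6 skeletal muscle markers ACTA1 (-1.94) and DES (-1.02) were lower. None of these 3 lists had a member past 2-fold after TNF-α, and between pMA and PIP cells only LUM (1.79), a matrix proteoglycan of fibroblasts, passed it. Of all gene names 4.73% were at least 2-fold lower after serotonin. In either direction 3.56% passed 2-fold after TNF-α and 13.5% between pMA and PIP cells. The endothelial genes CDH5 and TEK and the muscle regulators MYOD1 and MYF5 were not detected on any array. In the same lists PECAM1, KDR (12.1% to 21.7%), PAX7 (64.6% to 147%), MYOG (54.2% to 83.7%), DES and ACTA1 were detected on all 4 arrays, and VWF in pMA and after TNF-α only. Whether the bright CD86 and ACTA1 probes read only these genes was not tested. The part of other cells in the results was not tested either. A higher level per cell and a larger share of cells with the transcript cannot be told apart in pooled RNA.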

How the data were processed

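RNA pooled within each group was labelled with Cy3 and hybridized to a porcine 4 × 44K oligonucleotide array, 1 array per condition. The deposited intensity values came from Agilent Feature Extraction 10.7.3.1, by which the authors had subtracted background. The methods also name a mouse array read by GenePix and a two-color design, which the files do not show. The authors' processed table held a ratio of each intensity to a constant of its array, with no log, and served as an alternative. No genome build was stated, so no coordinates are given, and 18 of 19 member probes matched the gene symbol by accession in the RefSeq table.

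Control spots and outlier spots (1 to 12 per array) were left out, repeated spots averaged, and log2 intensities set relative to the 75th percentile of the array in Python 3.11.15. The ratio step was tested on simulated data. Of lists on TLR signaling and cell types, written from general knowledge, genes past 2-fold in any comparison could be named. IRAK3, IRAK4, TRAF3, TRAF6, IRF7, HMGB1, A_72_P442750, A_72_P163051 and the markers under 2-fold were named after their values were seen. The members and lists were chosen with earlier results of these data known. With 1 array per condition no test was run, and precision is limited by the number of arrays. The 11 alternatives covered scaling, normexp background correction (limma 3.58.1, offset 50), detection filters, the choice of probe and the fold cutoff.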

Additional observations from a re-analysis of the deposited data

Results flagged for a closer look

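A pair of probes that carry another identifier as gene name, but are described as TLR4 on the array, was well above background after serotonin and higher there than in unstimulated pMA. They lie outside the rule that chose the members and entered none of the counts. A_72_P444572 read 2.91% of the 75th percentile in PIP cells, where it was dim, 6.19% in pMA, 24.3% after serotonin and 6.15% after TNF-α, a log2 ratio of 1.97 (3.93-fold, scanner error 0.34) between serotonin and pMA. A_72_P180746 read 0.85% and 4.28% in PIP cells and pMA, where it was dim, then 9.63% after serotonin and 3.28% after TNF-α, a bound of 1.17 on the log2 scale, at least 2.25-fold. Both passed the 2-fold cutoff that no ratio or bound of the probes named TLR4 reached in this comparison. The difference between these probes and those named for the gene was not tested.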

How the results depend on the processing

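No paired analysis was possible because each condition was read on 1 array. The number of members that changed at least 2-fold was recomputed under 11 alternatives. Between pMA and PIP cells it was 2, and became 1 with scaling to the median (TLR2 lower), 1 with quantile normalization (TLR2 lower), 0 with normexp, 5 without a filter on dim probes, 5 with the weaker detection flag, 1 with detection on all 4 arrays, 4 at a 1.5-fold and 0 at a 4-fold cutoff. After serotonin it was 1, and became 0 with normexp, 2 without a filter and 2 with the weaker flag, 4 at 1.5-fold and 0 at 4-fold. After TNF-α it was 1, and became 0 with detection on all 4 arrays, which leaves TLR2 out, and 4 at 1.5-fold. Between TNF-α and serotonin it was 2, and became 3 with scaling to the median, quantile normalization or the mean over probes (TLR4 also lower), 0 with normexp, 1 with detection on all 4 arrays, 6 at 1.5-fold and 0 at 4-fold. With normexp the offset draws dim probes together by construction, and any further cause was not tested. Of 280 values of single genes under the alternatives, 241 moved by less than the technical SD of repeated spots and 39 by more, and 9 changed sign, none of them past the cutoff. Many of the 241 could not move. A change of detection filter leaves a ratio measured on both arrays as it was, and the mean over probes does so for genes with 1 probe. The count is therefore no measure of how stable the values are. The sign changes were in MYD88, LY96 and TLR6 between pMA and PIP cells and in MYD88 and CD14 after serotonin. Dim signal limits TLR2, TLR4, TLR6, TLR9 and TLR10 most, since all of them lay within a few fold of the faintest detected signal on at least 1 array.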

Other observations

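A probe described as TLR2 under another gene name, A_72_P442750, was not well above background on any of the 4 arrays. Of the danger signals that can act on TLR2 and TLR4, 7 were on the array. After each stimulation 1 of them passed 2-fold, beside 6.82% of all gene names for serotonin and 3.56% for TNF-α. The median of the 7 was -0.25 after serotonin and -0.11 after TNF-α. S100A8, a calcium-binding protein released by stressed cells, read 0.91%, 9.96%, 33.8% and 6.40% of the 75th percentile in PIP cells, pMA, serotonin and TNF-α. It was dim in PIP cells and highest after serotonin, with a log2 ratio of 1.76 to pMA. S100A9 went the other way after serotonin, with ratios to pMA of -0.29 after serotonin and -0.38 after TNF-α. VCAN (versican), a matrix proteoglycan, was highest after TNF-α, with a ratio of 1.11 to pMA, and lowest after serotonin, at -0.76. HMGB1, a chromatin protein that acts as a danger signal outside the cell, had -0.93 between pMA and PIP cells, 0.32 after serotonin and 0.11 after TNF-α.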
